A study of Sus scrofa and Bos taurus with 31 samples.

Results

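Open chromatin was described at 5 pig genes, TBX2, TBX3, TBX4, TBX5 and FOXF1, which encode transcription factors of the lung mesenchyme. The genes were chosen by name from the RefSeq annotation of Sscrofa11.1 and are 5 of 20674 protein-coding genes. Each was taken with 10 kb on either side, and the 2 spans between the neighbours TBX2 and TBX4 and between TBX3 and TBX5 were added. The libraries came from an ATAC-seq survey of farm animal tissues, an assay that marks DNA left exposed between nucleosomes by letting an enzyme insert adapters into it. The 16 pig libraries covered lung, subcutaneous adipose, skeletal muscle, liver, spleen, cerebellum, cerebral cortex and hypothalamus. Every tissue was sampled from the same 2 animals, P348 and P350, which the study's methods give as castrated male Yorkshire littermates 6 months old, so that differences between breeds, sexes and ages were outside the comparison. No treatment or mutation was involved, and the nuclei came from whole tissue rather than from sorted cells.

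T-box factors bind DNA through a shared domain that recognises a short motif. TBX4 and TBX5 start lung and limb buds, and in the lung they are active in the mesenchyme rather than in the epithelium. TBX2 and TBX3 act mostly as repressors and keep embryonic lung mesenchyme dividing. TBX2 and TBX4 lie side by side, as do TBX3 and TBX5, because an ancestral pair of genes was duplicated. FOXF1 is a forkhead factor that responds to hedgehog signals from the lung epithelium and is needed for lung vessels and smooth muscle.

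The loci lie on 3 chromosomes of Sscrofa11.1. TBX2 (gene ID 100622658) is at chr12:36878662-36887513 and TBX4 (100620126) at chr12:36803355-36830321, both on the minus strand. TBX3 (100152741) is at chr14:37582704-37596767 and TBX5 (100522280) at chr14:37772205-37826015, both on the plus strand. FOXF1 (106510450) is at chr6:2579348-2598122 on the minus strand. The windows measured 28.9 kb for TBX2, 47.0 kb for TBX4, 34.1 kb for TBX3, 73.8 kb for TBX5 and 38.8 kb for FOXF1. The span from TBX2 to TBX4 measured 48.3 kb and the span from TBX3 to TBX5 175.4 kb. These stretches also held other genes. The TBX2 window reached C12H17orf82, LOC110256170 and BCAS3, the TBX4 window LOC106505461, the TBX5 window the lncRNA LOC106505937 and the FOXF1 window MTHFSD, whose gene model overlaps FOXF1 on the other strand. C12H17orf82 and LOC106505461 lie in the first span, and LOC100157987 and LOC106505937 in the second. Peaks have no strand, so a peak in shared sequence cannot be assigned to 1 of these genes.

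One sequence is shown for each locus because it lies in the chromatin open in lung that the fewest other libraries share. It comes from the region with peaks in both lung libraries and in the fewest other libraries, and among equals from the one with the higher fold enrichment in the weaker lung library. Most of these regions were not confined to lung. The number of other libraries with a peak was 12 for FOXF1, 9 for TBX2, 5 for the TBX2-TBX4 span, 3 for TBX3 and 1 for TBX4. It was 0 for TBX5 and for the TBX3-TBX5 span. Fold enrichment, as the peak caller gives it, compares the signal in a peak with its surroundings. A region is a run of peaks of the 16 libraries that overlap, and the bases printed are those nearest to the stretch covered by the most libraries that hold no exon base. All are given on the plus strand of Sscrofa11.1, in lower case, with capitals for the T-box core AGGTGT and the forkhead motif TGTTTAC on either strand.
TBX2 intron, chr12:36886797-36887096: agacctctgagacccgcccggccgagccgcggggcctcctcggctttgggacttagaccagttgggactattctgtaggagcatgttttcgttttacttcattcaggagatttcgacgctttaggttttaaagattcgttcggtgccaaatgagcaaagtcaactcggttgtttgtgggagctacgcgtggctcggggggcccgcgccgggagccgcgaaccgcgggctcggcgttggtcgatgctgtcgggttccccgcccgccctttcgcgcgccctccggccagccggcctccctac
TBX4 intron, chr12:36825751-36826028: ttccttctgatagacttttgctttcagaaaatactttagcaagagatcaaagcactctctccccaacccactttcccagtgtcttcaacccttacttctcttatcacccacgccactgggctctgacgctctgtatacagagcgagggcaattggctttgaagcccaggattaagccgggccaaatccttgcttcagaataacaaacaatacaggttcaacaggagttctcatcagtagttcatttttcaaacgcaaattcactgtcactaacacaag
TBX2-TBX4 span, intron of LOC106505461, chr12:36841236-36841535: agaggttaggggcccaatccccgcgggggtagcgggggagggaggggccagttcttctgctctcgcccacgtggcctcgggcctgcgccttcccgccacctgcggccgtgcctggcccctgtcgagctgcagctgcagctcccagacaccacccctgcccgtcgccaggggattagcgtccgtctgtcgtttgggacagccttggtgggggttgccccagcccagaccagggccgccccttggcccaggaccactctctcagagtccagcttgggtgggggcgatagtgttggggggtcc
TBX3 intron, chr14:37590608-37590907: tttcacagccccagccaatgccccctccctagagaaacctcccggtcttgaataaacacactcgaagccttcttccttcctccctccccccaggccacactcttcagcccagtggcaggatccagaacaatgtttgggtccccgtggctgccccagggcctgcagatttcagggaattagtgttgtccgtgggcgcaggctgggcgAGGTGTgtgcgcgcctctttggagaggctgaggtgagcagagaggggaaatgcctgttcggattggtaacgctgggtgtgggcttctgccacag
TBX3-TBX5 span, intergenic, chr14:37676172-37676471: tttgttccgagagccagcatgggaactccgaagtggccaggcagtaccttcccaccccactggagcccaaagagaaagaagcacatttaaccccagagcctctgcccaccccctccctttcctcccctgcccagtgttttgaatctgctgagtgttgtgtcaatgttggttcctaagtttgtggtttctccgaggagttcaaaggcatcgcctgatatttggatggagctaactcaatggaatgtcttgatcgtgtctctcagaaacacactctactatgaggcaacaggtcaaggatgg
TBX5 downstream, intergenic, chr14:37832659-37832958: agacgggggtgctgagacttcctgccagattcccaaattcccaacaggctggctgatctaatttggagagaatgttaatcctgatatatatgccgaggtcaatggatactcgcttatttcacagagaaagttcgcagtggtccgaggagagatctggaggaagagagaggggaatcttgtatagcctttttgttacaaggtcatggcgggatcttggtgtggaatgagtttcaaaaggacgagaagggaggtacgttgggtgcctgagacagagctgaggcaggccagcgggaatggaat
FOXF1 upstream of the TSS, chr6:2598123-2598422: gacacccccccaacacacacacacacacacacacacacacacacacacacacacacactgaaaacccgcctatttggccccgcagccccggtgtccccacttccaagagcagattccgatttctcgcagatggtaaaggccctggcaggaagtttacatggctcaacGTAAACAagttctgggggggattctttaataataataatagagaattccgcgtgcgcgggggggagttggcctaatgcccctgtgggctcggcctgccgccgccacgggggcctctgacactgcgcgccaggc

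These 7 stretches held few of the motifs searched. The letters were AGGTGTGA for the full T-box site, AGGTGT for its core (which every full site contains), TGTTTAC for forkhead factors, TGANTCA for AP-1 and GACCACCCA for GLI factors, the effectors of hedgehog signals. Only the TBX3 stretch held the T-box core, at 37590814 to 37590819 on the plus strand, and only the FOXF1 stretch held the forkhead motif, at 2598290 to 2598296 on the minus strand. Among the 435022 regions of the 16 libraries that were at least 300 bp wide, 15.8% held the core and 3.54% the forkhead motif in a window of 300 bp. The full T-box site was in 1.45%, the AP-1 motif in 11.2% and the GLI motif in 0.302% of those windows. Of the 31 regions of the loci that had peaks in both lung libraries and were 300 bp wide or more, 6 held the T-box core, 1 the full site and 0 the forkhead, AP-1 or GLI motif in such windows. These windows, like those of all regions, were centred on the stretch covered by the most libraries and could hold exon bases, whereas the printed stretches were moved off exons, so the forkhead motif printed for FOXF1 lies outside its counted window. A match to these letters does not show binding, and a missing match says nothing about the factor.

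The 16 lists held between 99960 and 217308 peaks and covered between 64.1 and 155.6 Mb. Levels are therefore given as peak bases per Mb of all peak bases in the library. The share of a library's peaks that fell in gene windows differed between tissues, and the median log2 difference of all 19638 coding gene windows was -0.82 in cerebellum and 0.33 in skeletal muscle against the other 7 tissues. In lung it was -0.04. The 7 measured markers of lung epithelium, which stand for the cells that face the air, had summed levels of 263.1 to 264.0 in the 2 lung libraries and 91.2 to 260.7 in the other 14. All other lists of cell type markers were highest in another tissue. Fibroblast markers summed to 143.0 to 148.3 in lung and 119.6 to 179.4 elsewhere. Smooth muscle markers summed to 326.3 to 346.0 in lung and 83.3 to 434.3 elsewhere.

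TBX5, which is required for the lung bud to form, was among the 2 member genes with the larger differences in lung. Its window held 56.3 peak bases per Mb in the lung of P348 and 66.9 in that of P350. Adipose held 82.6 and 51.1, and hypothalamus 66.9 and 26.8, so the lung libraries lay inside the range of the others. Liver gave 35.3 and 41.8, and cerebral cortex 44.6 and 32.1. Cerebellum gave 28.2 and 39.8, and skeletal muscle 37.5 and 13.3. Spleen had 13.1 and 19.8, the lowest mean of the 8 tissues. The lung mean was 61.6 ± 7.49 (SD, n = 2 animals) and the mean of the other 7 tissue means 38.1 ± 16.1 (SD, n = 7 tissues). The difference was 0.76 ± 0.33 (SE) on the log2(peak bases per Mb + 5) scale and did not pass the test across all windows (limma, adjusted p = 0.371). With peaks at a q-value under 0.0001 the TBX5 difference was 1.30 (limma, adjusted p = 0.164).

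FOXF1, the forkhead gene, was the other. Its window held 42.6 and 52.5 peak bases per Mb in the lung of P348 and P350. Spleen held 50.6 and 46.4, which overlapped with lung, and the 2 tissues had the highest means. Liver gave 22.1 and 47.9, a wide gap between the animals. Adipose held 39.7 and 29.1, and skeletal muscle 33.4 and 30.5. Hypothalamus gave 28.0 and 24.3, and cerebral cortex 28.6 and 14.9. Both cerebellum libraries, at 1.45 and 11.8, lay below all 14 others, which held for 33.8% of all gene windows. The lung mean of 47.6 ± 6.97 (SD, n = 2) stood against 29.2 ± 13.0 (SD, n = 7 tissues) elsewhere, a log2 difference of 0.78 ± 0.33 (SE) that did not pass (limma, adjusted p = 0.354). For FOXF1 it was 1.48 (limma, adjusted p = 0.251) with peaks at a q-value under 0.01 and 1.83 (limma, adjusted p = 0.0502) under 0.0001, just short of the threshold, but -0.26 (limma, adjusted p = 0.649) when peaks were counted in place of bases. The spleen difference was 0.81 ± 0.33 (limma, adjusted p = 0.0979).

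The remaining 3 genes were close to the other tissues in lung. TBX4, the hindlimb and lung bud gene, held 34.3 and 41.9 peak bases per Mb in lung, a log2 difference of 0.20 ± 0.28 (SE; limma, adjusted p = 0.771). Its highest levels were in adipose, at 59.1 and 58.7, where both libraries lay above all 14 others, as was the case for 2.56% of all gene windows, although the log2 difference of 0.86 ± 0.28 did not pass (limma, adjusted p = 0.0974). Cerebellum followed with 41.2 and 48.9, hypothalamus with 49.5 and 28.3 and liver with 39.1 and 33.7, all of which overlapped with lung. Cerebral cortex held 23.4 and 30.3, and spleen 37.2 and 13.3. Skeletal muscle was lowest on average, at 17.3 and 13.4.

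TBX3, a repressor, held 35.1 and 46.2 in lung. Adipose had 46.1 and 63.0 and liver 69.1 and 38.7, and skeletal muscle had 48.3 and 40.0, so 3 tissues had means above lung. Cerebral cortex gave 25.6 and 42.7, hypothalamus 40.6 and 20.1 and spleen 30.3 and 30.5. Cerebellum was lowest on average at 16.3 and 20.8. The lung difference was 0.17 ± 0.27 (SE; limma, adjusted p = 0.818). TBX2, its paralog in the other pair, held 41.5 and 20.4 in lung, so the animals stood apart. Skeletal muscle had the highest mean, with 68.0 and 65.6. Spleen held 69.5 and 22.5, and liver 46.1 and 43.8. They did so too in cerebral cortex at 46.9 and 19.5, in adipose at 44.2 and 17.5 and in cerebellum at 4.21 and 26.6. Hypothalamus gave 34.6 and 18.6. The lung difference of TBX2 was -0.12 ± 0.47 (SE; limma, adjusted p = 0.929).

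**Figure D1:**
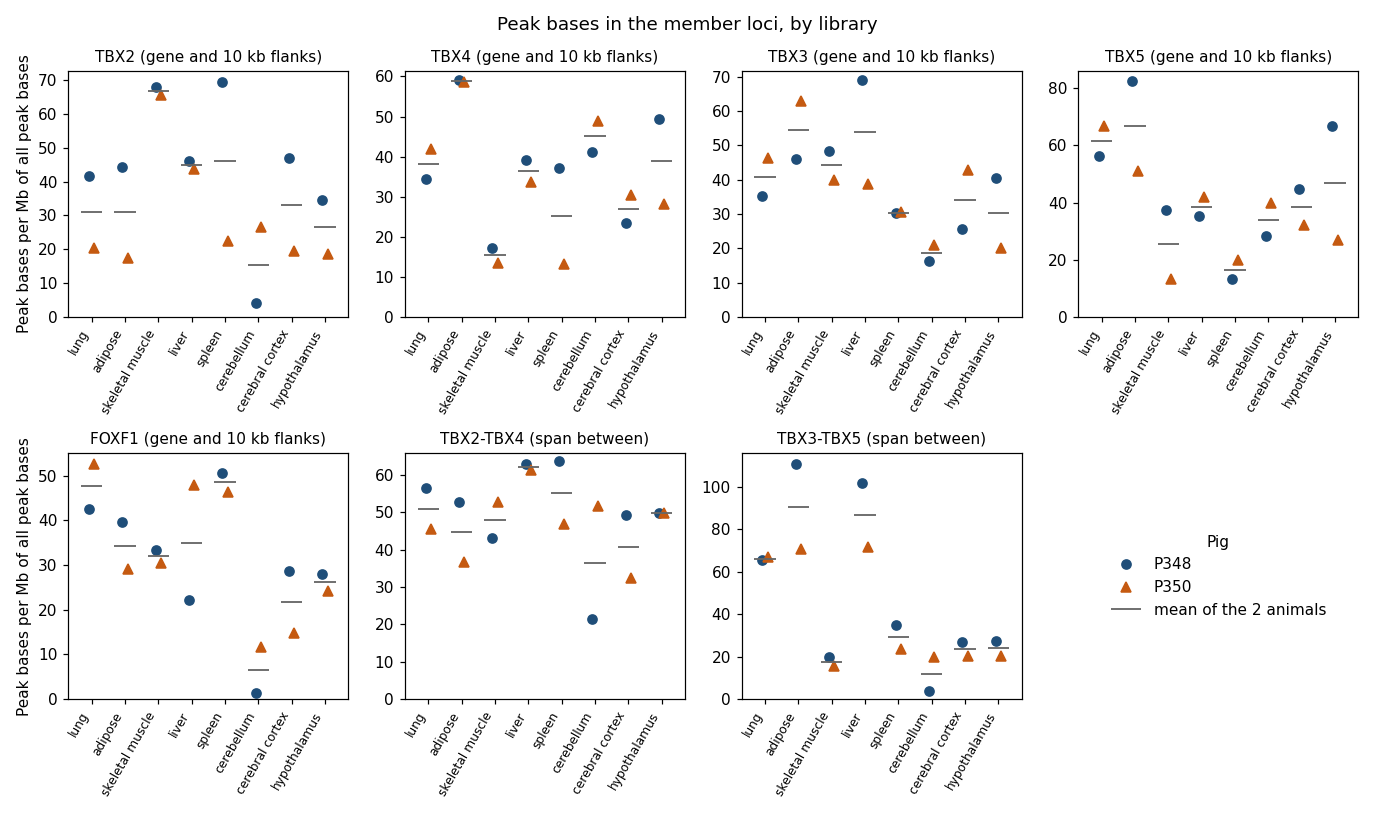
Peak bases per Mb of all peak bases (vertical axis, from 0) in each of the 5 gene windows and 2 spans, by tissue, with circles for pig P348, triangles for pig P350 and lines for the mean of the 2. In no panel do both lung points lie above all other points, and cerebellum has the lowest mean for TBX2, TBX3, FOXF1 and both spans.

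Of the 2 spans, the one between TBX3 and TBX5 differed among tissues and the one between TBX2 and TBX4 did not pass that test. The TBX3-TBX5 span held 65.6 and 66.7 peak bases per Mb in lung. Only adipose, with 110.6 and 70.5, and liver, with 101.7 and 71.8, were higher, and all 4 of their libraries lay above both lung libraries. The 10 libraries of the remaining 5 tissues lay below lung, the highest of them at 34.8 in the spleen of P348 and the lowest at 3.91 in the cerebellum of P348. The lung mean of 66.2 ± 0.79 (SD, n = 2) against 40.5 ± 33.3 (SD, n = 7 tissues) gave a log2 difference of 0.98 ± 0.33 (SE) that did not pass (limma over 14081 spans, adjusted p = 0.232). The TBX2-TBX4 span held 56.4 and 45.5 in lung and between 21.3 and 63.7 in the other 14 libraries, a difference of 0.11 ± 0.27 (SE; limma, adjusted p = 0.855).

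No member thus passed as higher or lower in lung, with limma counts of 0 of 5 genes and 0 of 2 spans. At an unadjusted p under 0.05, 2 of the 5 genes (TBX5 and FOXF1) and 1 of the 2 spans (TBX3-TBX5) were higher, as were 5.59% of all windows and 9.25% of all spans. Few windows passed anywhere in the genome. In lung 7 of 19638 windows were called higher (0.0356%, and 2 windows with the animal as a block). Among spans 55 of 14081 were called higher (0.391%, and 31 with the block) and 0.0497% lower. Both lung libraries exceeded all 14 others in 0.428% of windows and 0.916% of spans, and in none of the 7 member loci. By exact permutation over libraries (two-sided, all 120 choices of 2 of 16, smallest possible p = 0.0167) the lung values were p = 0.1 for TBX5 and for FOXF1 and p = 0.25 for the TBX3-TBX5 span. The limma tests measure the spread between 2 littermates within a tissue. The permutation treats the 16 libraries as interchangeable, although they came in pairs of the same tissue. Its p therefore reflects the spread across tissues and not that between the animals.

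The calls among the members were in other tissues. Of the 35 contrasts of a member gene in 1 of the 7 other tissues against all the rest, 5 passed, all of them lower. Over all windows and the same 7 tissues, 11.7% of contrasts were called lower and 8.45% higher, so the count of 5 is near that of all genes. Of the 14 such contrasts of a span, 1 passed as higher and 1 as lower, against 7.42% and 8.76% over all spans. Apart from the members, these spans run between neighbouring coding genes and hold none, whereas both member spans hold coding genes. FOXF1 was lower in cerebellum by -1.88 ± 0.33 on the log2 scale (SE; limma, adjusted p = 0.000487), and so were TBX3 by -0.92 ± 0.27 (adjusted p = 0.00905) and TBX2 by -1.27 ± 0.47 (adjusted p = 0.0278). In cerebellum 60.2% of all windows were called lower, around a median of -0.82. With 10 kb flanks TBX3 therefore lay close to that median, TBX2 somewhat below it and FOXF1 further below. Both FOXF1 and TBX3 were low in each cerebellum library, whereas TBX2 was low in P348 only, and without that library its difference was -0.39 (limma, adjusted p = 0.622). Without the same library TBX3 fell short as well, at -0.78 (limma, adjusted p = 0.123). Both calls also depended on the scaling. Without scaling the differences were -0.28 for TBX3 (limma, adjusted p = 0.413) and -0.73 for TBX2 (adjusted p = 0.283), around a median of all windows of -0.25. With quantile normalization they were -0.09 (limma, adjusted p = 0.797) and -0.51 (adjusted p = 0.408), around -0.12.

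TBX4 was lower in skeletal muscle by -1.03 ± 0.28 (SE; limma, adjusted p = 0.00932), where 14.2% of windows were called lower. Without the skeletal muscle of P350 it was -0.90 (limma, adjusted p = 0.135). With peaks at a q-value under 0.01 the difference was -0.06 (limma, adjusted p = 0.951), and under 0.0001 it turned to 1.01 (limma, adjusted p = 0.223). TBX5 was lower in spleen by -1.12 ± 0.33 (SE; limma, adjusted p = 0.0358), against 3.75% of windows. Without the spleen of P348 the TBX5 difference was -0.89 (limma, adjusted p = 0.291), without that of P350 it was -1.35 (limma, adjusted p = 0.115), and it also missed the threshold without the lung of P350, the liver of P350 or the cerebral cortex of P348 (limma, adjusted p = 0.0576, 0.0521 and 0.0543).

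The TBX3-TBX5 span was higher in adipose by 1.43 ± 0.33 (SE; limma, adjusted p = 0.0288; 4.1% of spans were called higher) and lower in cerebellum by -1.60 ± 0.33 (limma, adjusted p = 0.00296; 34% were called lower). The liver difference was 1.38 ± 0.33 and just missed the threshold (limma, adjusted p = 0.0532), as did the lower value of skeletal muscle, -0.91 ± 0.33 (limma, adjusted p = 0.0519). The adipose call was lost without either adipose library (limma, adjusted p = 0.186 without P348 and 0.0859 without P350). With peaks at a q-value under 0.0001 the adipose difference turned to -1.20 (limma, adjusted p = 0.0714). Without scaling the cerebellum difference missed the threshold, at -1.08 (limma, adjusted p = 0.0614) around a median of all spans of -0.10. The cerebellum call was lost without the cerebellum of P348, at -0.86 (limma, adjusted p = 0.0797).

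**Figure D2:**
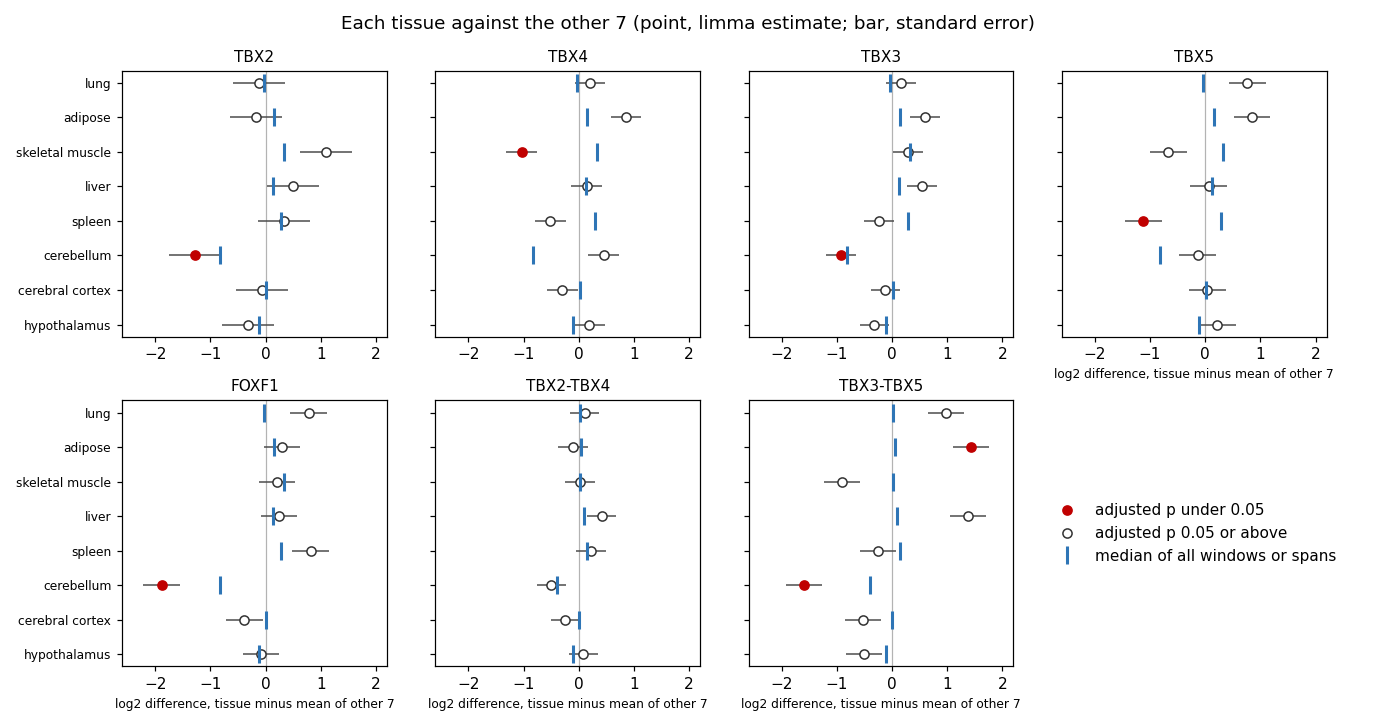
Log2 difference of each tissue from the mean of the other 7 (horizontal axis) for each gene window and span, with limma's standard error as bars, filled points for an adjusted p under 0.05 and blue ticks for the median of all windows or spans. No lung point is filled, and the cerebellum ticks stand at -0.82 for windows and -0.39 for spans.

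Across all 8 tissues, the levels of FOXF1, TBX4, TBX5 and the TBX3-TBX5 span differed by limma's moderated F test (adjusted p = 0.0075, 0.0241, 0.0374 and 0.00281). TBX3 (adjusted p = 0.0529), TBX2 (0.174) and the TBX2-TBX4 span (0.523) did not pass the same limma test. That test called 71.5% of all windows and 53.6% of all spans, so 3 of 5 member genes is near the share of all genes. As a description of how well the animals matched over the 8 tissues, Pearson's r was 0.85 for the TBX3-TBX5 span, 0.68 for FOXF1, 0.61 for TBX4, 0.48 for TBX5, 0.44 for TBX3, 0.18 for TBX2 and -0.10 for the TBX2-TBX4 span. The TBX2 window and the span beside it were thus the loci on which the animals matched least. Each T-box window reaches 10 kb into its span, so the values of a window and its span partly rest on the same bases.

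Levels can be set against each other between genes only per length. In lung the FOXF1 window was covered by peaks 3.07 ± 0.45 times as densely as the genome as a whole (SD, n = 2), the TBX3 window 2.99 ± 0.57 times, TBX2 2.68 ± 1.29, TBX5 2.09 ± 0.25 and TBX4 2.03 ± 0.29 times. Both lung libraries of FOXF1 and of TBX3 lay above both of TBX5 and TBX4. FOXF1 and TBX3 overlapped with each other, TBX5 with TBX4, and TBX2 with all 4. The same density was not worked out for all gene windows, so these values do not set the members apart from other genes. The TBX3-TBX5 span, which is mostly intergenic, was covered 0.94 ± 0.01 times as densely as the genome in lung, 1.29 ± 0.40 times in adipose and 0.17 ± 0.16 times in cerebellum.

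The promoters of the members ranged from open in every library to open in fewer than 8. A peak within 2 kb of a transcription start site (TSS) of TBX3 was found in 16 of 16 libraries. TBX5 and FOXF1 each had one in 14, TBX2 in 11 and TBX4 in 7. In any single library 71.8% to 82.3% of all coding genes had such a peak. Within 500 bp of a TSS, TBX5 had a peak in 11 libraries and FOXF1 in 13, while the other counts did not change. Both lung libraries had a TSS peak at TBX2, TBX3, TBX5 and FOXF1, while TBX4 had one in the lung of P350 alone. The TBX4 promoter was open in both adipose and both cerebellum libraries, in the spleen of P350 and in the hypothalamus of P348, and in no liver, skeletal muscle or cerebral cortex library. FOXF1 lacked a TSS peak within 2 kb in the adipose of P348 and the cerebellum of P348. Only TBX3 kept its TSS peak in most libraries with a strict q-value under 0.0001, in 13 of 16, against 6 for FOXF1, 3 for TBX5, 2 for TBX2 and 0 for TBX4. At that limit 37.4% to 68.1% of all coding genes had a TSS peak in a given library, 48.6% had one in at least 13 libraries, 59.2% in at least 9 and 19.4% in none. The 6 FOXF1 promoters were those of lung, skeletal muscle and liver in both animals.

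Peaks also differed in height between the promoters. The TBX3 promoter region, chr14:37579929-37584229, had fold enrichments of 4.69 and 4.12 in the lung of P348 and P350. It was highest in skeletal muscle, at 5.64 and 6.27, and lowest in cerebellum, at 2.63 and 3.30. The FOXF1 promoter region, chr6:2596123-2598496, from which the FOXF1 sequence above was taken, stood at 3.29 and 3.31 in lung, between 3.86 and 3.90 in liver and at 3.36 and 3.99 in skeletal muscle. Its lung values were therefore inside the range of other tissues. The TBX2 promoter region, chr12:36886364-36888430, which also touches the start of LOC110256170, reached only 2.26 and 2.05 in lung and at most 2.98, in the liver of P348. The TBX4 promoter region, chr12:36829363-36831213, had 2.65 in the lung of P350 and at most 3.29, in the spleen of P350.

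Merged over the 16 libraries, the 7 loci held 101 distinct regions. Of these, 34 were in 1 library and 4 in all 16, against 33.4% and 3.15% of all regions. Both counts are near those shares. By chromatin open in both animals of a tissue, 32 of the 101 were open in lung, against 22.4% of all 533944 regions. Adipose and liver each opened 26 (14.5% and 15.3% of all regions), cerebral cortex 22 (20.5%), hypothalamus 16 (12.9%), cerebellum 15 (24.3%), skeletal muscle 13 (16.1%) and spleen 8 (12.7%). Lung thus had the most open regions at these loci, while adipose and liver stood furthest above their shares of all regions. Of the 32 regions open in lung, 17 were also open in both adipose libraries (53.1%, against 47.3% of all regions open in lung) and 17 in both liver libraries (53.1% against 48.6%). Fewer were shared with cerebral cortex (14, 43.8% against 51.9%), cerebellum (13, 40.6% against 49.2%), hypothalamus (11, 34.4% against 41.2%) and skeletal muscle (10, 31.2% against 40.8%). Spleen shared the fewest (5, 15.6% against 41.4%). They touched an exon in 11 cases, lay within an intron in 11 and were intergenic in 10.

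Of the 18 TBX5 regions, 9 were open in lung, the largest number of any tissue there, with cerebellum next at 6. Regions open in both lung libraries and in at most 2 others numbered 6 of 101, against 2.79% of all regions, and 3 of the 6 were in the TBX5 window. Those open in both lung libraries and nowhere else numbered 3, against 0.77% of all regions. The first lies downstream of TBX5 at chr14:37832484-37833503, 56460 bp from the nearest TBX5 TSS, with folds of 2.38 and 2.88. The other two lie between TBX3 and TBX5, at chr14:37629214-37630022 with folds of 2.56 and 2.67 and at chr14:37676171-37676471 with folds of 3.25 and 3.44. These are modest peaks. At a q-value under 0.0001 the loci kept 27 regions, of which 0 were open in lung only, against 1.12% of all regions. The strongest region near this pattern in TBX5 was an intronic one at chr14:37785467-37787003, with folds of 3.23 and 3.09 in lung and 2.43 in the adipose of P348, its only other library.

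**Figure D3:**
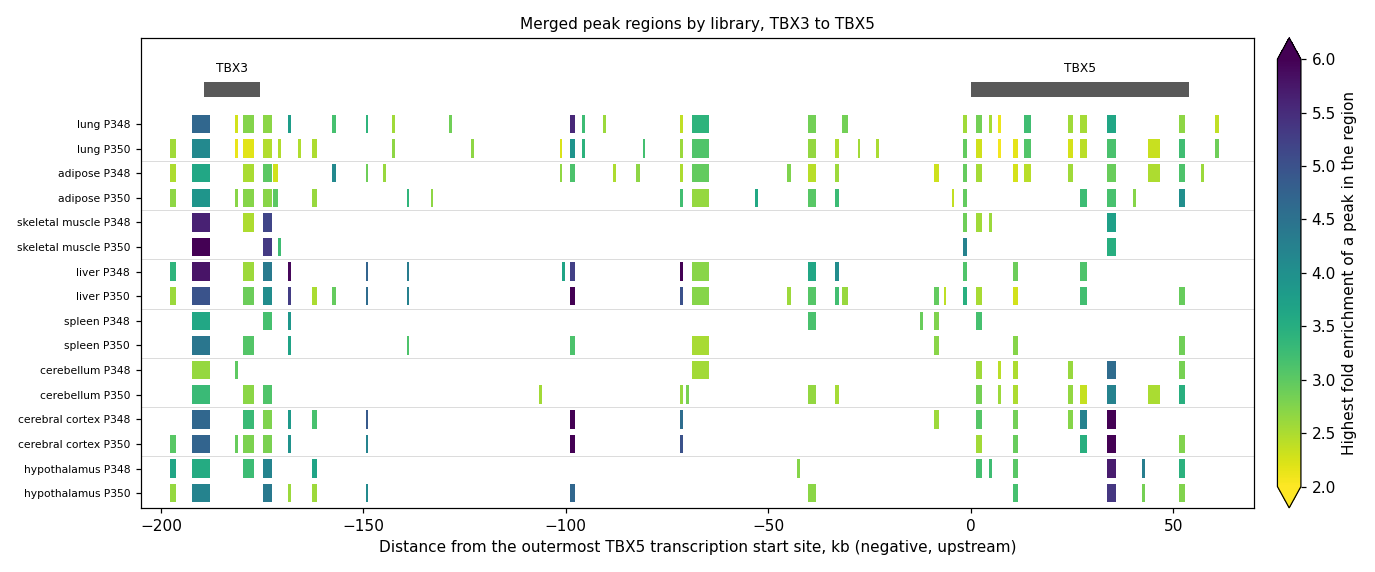
Merged regions from TBX3 to TBX5 by library (rows), placed by distance in kb from the outermost TBX5 start site and coloured by the highest fold enrichment of a peak there, with dark colours for 6 and above. Each lung, adipose and liver library has more peaks along the span than each library of the other tissues, and all libraries leave most of it empty.

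Other regions of these loci were shared or belonged to other tissues. An intronic TBX5 region at chr14:37805862-37807985 was open in 12 libraries, with folds of 6.0 and 7.04 in cerebral cortex, 5.70 and 5.37 in hypothalamus and 3.63 and 3.15 in lung, and had no peak in liver or spleen. The highest fold at any of the loci was at chr12:36868176-36870737 between TBX2 and TBX4, a region open in all 16 libraries. It reached 14.6 in the hypothalamus of P348 and 6.02 in that of P350, with 3.73 and 4.13 in lung. At TBX4 the only region with peaks in both lung libraries and at most 2 others was the intronic one printed above, with 2.69 and 2.25 in lung and a higher fold of 4.93 in the liver of P348. FOXF1 had 15 regions, of which lung opened 2, the promoter and a region 6637 bp downstream of the TSS at chr6:2588075-2591485, where liver had folds of 6.26 and 5.86 and lung 2.46 and 2.62. Cerebellum opened 0 of the 15 FOXF1 regions and 0 of the 39 regions of the TBX3-TBX5 span in both animals, against 24.3% of all regions. Single libraries did have peaks there. The cerebellum of P350 had 3 in the FOXF1 window and 6 in the span, and that of P348 had 1 in each.

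**Figure D4:**
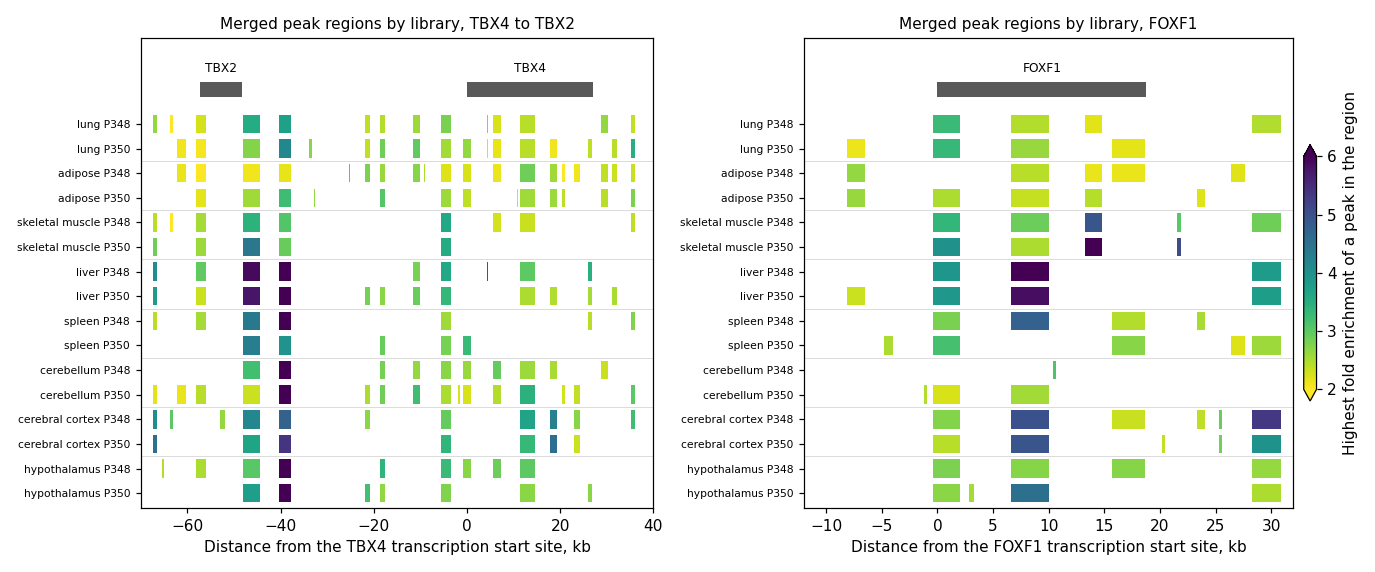
Merged regions from TBX4 to TBX2 (left) and at FOXF1 (right) by library, placed by distance in kb from the TBX4 or FOXF1 start site and coloured by the highest fold enrichment of a peak. The FOXF1 start is covered in 14 of 16 libraries and the TBX4 start in 7, and the darkest TBX2-TBX4 region is open in all 16.

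Genes of the same families and of the mesenchyme did not pass in lung either. Of all windows 0.0356% passed as higher in lung and 0% as lower, so counts of 0 in these lists and in the markers are near that share. At an unadjusted p under 0.05, 12.8% of all windows differed in lung in 1 direction or the other, and the counts at that limit are to be read against this share. None of the 12 measured other T-box genes passed (limma; 2 at an unadjusted p under 0.05, TBX18 and TBX22, both lower), around a median log2 difference of -0.22. None of the 11 forkhead genes passed (limma; 0 at an unadjusted p under 0.05), around 0.18, nor did any of 20 ligands, receptors and factors of lung mesenchyme (limma; 4 at an unadjusted p under 0.05), around 0.09. The 4 were WNT5A, ITGA8 and COL13A1, which were higher, and WNT2B, which was lower. The median of the 5 members was 0.20 and that of all windows -0.04. In 10 lists of cell type markers with 47 measured genes none passed in lung (limma; 4 at an unadjusted p under 0.05). The list of lung epithelium had the highest median, 0.85, and that of fibroblasts, the cells closest to the mesenchyme, 0.00. Medians were 0.48 for adipocytes, 0.27 for endothelium and for leukocytes, 0.20 for mesothelium and 0.12 for smooth muscle. They were 0.00 for neurons, -0.27 for skeletal muscle and -0.35 for hepatocytes. In whole tissue, fewer cells with open chromatin at a gene and less open chromatin per cell cannot be told apart, and the part of cell composition in these levels was not tested.

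By pattern over the 16 libraries, the windows most like each member elsewhere in the genome were, with Pearson's r on the log2 scale as a description, SPRYD3 for TBX2 (0.92), SMIM23 for TBX4 (0.90), FAN1 for TBX3 (0.90), CAPN8 for TBX5 (0.88) and CERS3 for FOXF1 (0.93). Next came PRR19 and TRPM5 for TBX2, C1QL2 and LNX1 for TBX4, TYW1 and C13H21orf59 for TBX3, R3HDML and IQSEC3 for TBX5 and SLC35C2 and PLEKHG6 for FOXF1, with r between 0.86 and 0.92. Between the members r was highest for TBX2 with FOXF1, at 0.65, and for TBX4 with TBX5, at 0.62, and lowest for TBX2 with TBX4, the neighbours, at -0.30. All values share the scaling by each library's peak bases.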

How the data were processed

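ATAC-seq peak lists of 16 pig libraries were used. According to the submitters' processing notes, the authors used Trim Galore 0.4.5, BWA 0.7.17, SAMtools 1.10 and Picard 2.18.17, and the study's methods name MACS2, run for ATAC-seq in its broad mode at a q-value limit of 0.05. Any shift of reads toward the cut site was not given in the sources used here. Each deposited list holds 1 library, so animals were not pooled. The deposited score in column 5 is about 10 times the −log10 q-value, the deposited fold enrichment in column 7 is a ratio of signal to local background, and the −log10 values of p and q that the authors deposited are averages over a broad peak. The lists give no read counts. The study's supplement describes read numbers for each dataset, but these were not used here, and no interval that needs them is given. A deeper library can yield more and weaker peaks.

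Samples were grouped by tissue from their labels, with the animal as replicate. Because the same animals supplied every tissue, replicate names pair the libraries. As a check, the correlation between tissues of one animal's deviations from the tissue means averaged -0.00 over 28 pairs (lowest -0.21, highest 0.16). Peak bases in each protein-coding gene plus 10 kb, and in each span of 1 kb or more between neighbouring genes, were divided by the library's peak bases. NCBI's RefSeq annotation of Sscrofa11.1 was used, the assembly of the study, which took another annotation. Windows with a peak in at least 2 libraries were kept (19638 windows and 14081 spans). The log2(peak bases per Mb + 5) values were fitted in limma 3.58.1 (R 4.3.3) with a mean for each tissue, and each tissue was compared with the mean of the other 7 with Benjamini-Hochberg adjustment over all windows or spans and a threshold of 0.05. A fold on this scale understates the change of low windows. Regions were made by merging overlapping peaks, with Python 3.11.15, numpy 2.4.6, pandas 2.3.3 and pysam 0.24.0. Alternatives were stricter q-values, lists of equal length, other scalings, flanks, pseudocounts and filters, the animal as a block, and leaving out each library.

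The members, the gene lists and the tests were chosen with earlier results of these data known. Named genes were the members, genes within the loci, for each member the 3 coding genes with the highest correlation more than 1 Mb away, and of each list those past the threshold. List genes named at an unadjusted p were chosen after their values were seen, as were the motifs and the regions named apart from those printed. The cattle lists were not used here.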

Additional observations from a re-analysis of the deposited data

How the results depend on the processing

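Over the alternatives, no member gene passed in lung, and the TBX3-TBX5 span passed only without cerebellum replicate P350 (difference 1.09, limma, adjusted p = 0.0457). TBX5 and the TBX3-TBX5 span kept a positive difference under every alternative run. Sizes moved more than calls. Over all alternatives the lung difference ranged from -0.55 to 0.75 for TBX2, -0.064 to 1.01 for TBX4 (highest at a q-value under 0.01), -0.0099 to 0.71 for TBX3 (lists of equal length), 0.56 to 1.30 for TBX5 and -0.26 to 1.83 for FOXF1 (both under 0.0001), and 0.55 to 1.49 for TBX3-TBX5 (without scaling). The TBX2-TBX4 span ranged from -0.037 to 0.66. The sign turned for TBX2 with peaks at a q-value under 0.01 (0.55) and under 0.0001 (0.75), lists of equal length (0.32), no scaling (0.35) and 50 kb flanks (0.18), for TBX4 under 0.0001 (-0.064), for FOXF1 when peaks were counted (-0.26), and for the TBX2-TBX4 span under 0.05 (-0.015) and with quantile normalization (-0.037). Without 1 library each, differences ranged from -0.55 to 0.32 for TBX2, 0.08 to 0.33 for TBX4, -0.0099 to 0.34 for TBX3, 0.65 to 0.88 for TBX5, 0.65 to 0.92 for FOXF1, -0.034 to 0.25 for TBX2-TBX4 and 0.88 to 1.09 for TBX3-TBX5. Of these, TBX2 turned positive without lung P350 (0.32) or cerebellum P350 (0.01), TBX3 negative without lung P350 (-0.0099) and TBX2-TBX4 negative without lung P348 (-0.034).

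The replicate block changed no call of a member. FOXF1 in cerebellum stayed called in 32 of 32 alternatives. The other calls were lost in 6 of 32 for TBX2 and 4 of 32 for TBX3 in cerebellum, 9 of 32 for TBX5 in spleen and 2 of 30 for TBX3-TBX5 in cerebellum. TBX4 in skeletal muscle was lost in 4 of 32 and turned in 1 (1.01), and TBX3-TBX5 in adipose was lost in 7 of 30 and turned in 1 (-1.20), both under a q-value of 0.0001. Without scaling, the median of all windows in lung was 0.41, above the 0.35 of TBX2. The cause of these changes was not tested.

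The number of windows called higher in lung, 7, moved to 3, 76 and 546 with q-values under 0.05, 0.01 and 0.0001, 24 with lists of equal length, 17 by peak number, 388 without scaling, 0 with quantile normalization, 26 without flanks, 0 with 50 kb flanks, 15 with a pseudocount of 1, 33 without a filter, 0 with a peak in at least 8 libraries, 2 with the replicate block and 0 to 76 without 1 library. For spans, 55 moved to 211 and 604 under 0.01 and 0.0001, 204 with equal lists, 638 without scaling, 35 with quantile normalization, 83 with a pseudocount of 1, 88 without a filter, 1 with at least 8 libraries, 31 with the block and 32 to 132 without 1 library. Regions of the loci open in both lung libraries fell from 32 of 101 to 15 of 63 under a q-value of 0.01. Under 0.0001 they fell to 5 of 27. Those open in lung only went from 3 to 2 and to 0 of the same totals. Over all regions the share open in lung only was 0.77%, 1.08% and 1.12%, so a count of 0 among 27 is near that share. With 2 littermates a tissue and without read depth in the fit, small differences could not be resolved.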
